A study of Mus musculus with 23 samples.

Results

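The Gnas and Nespas locus was followed through 3 tables of DNA methylation from hybrid mouse embryos. Its members were all windows whose midpoint lay in chr2:174275000-174350000 (GRCm38), which gave 32 of the 402812 windows of the E7.5 tables and 30 of the 333984 windows of the E6.5 table. The stretch of 75 kb holds Gnas (ENSMUSG00000027523) on the plus strand and its antisense gene Nespas (ENSMUSG00000086537) on the minus strand.

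Gnas is an imprinted gene with several promoters that splice onto shared downstream exons. The most upstream promoter makes Nesp, a secretory protein transcript that is expressed from the maternal allele and whose promoter is methylated on the paternal allele. Further downstream, the Nespas and Gnasxl promoters are methylated on the maternal allele from the oocyte onwards and are active on the paternal allele. Nespas is a noncoding RNA transcribed across Nesp in the antisense direction, and Gnasxl makes the XLαs protein. The exon 1A promoter carries a second maternal methylation mark, while the promoter of Gnas exon 1, which makes the G protein subunit Gsα, is known to be free of methylation on both alleles.

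Bisulphite libraries were made by post-bisulphite adaptor tagging, and methylation was given as the percentage of methylated calls in windows of 100 CpG positions. At E6.5 the libraries came from chromatin input of pooled epiblasts or pooled extra-embryonic ectoderm (ExE), the trophoblast tissue next to the epiblast. B6/CAST embryos (C57BL6/Babr mother, CAST/Ei father) gave 3 epiblast and 2 ExE libraries, and CAST/B6 embryos, the reciprocal cross, gave 3 and 2. The matDKO/CAST embryos gave 2 epiblast and 3 ExE libraries; their mothers were of mixed B6/129 background and lacked Dnmt3a and Dnmt3b, the de novo methyltransferases, in growing oocytes through Zp3-cre, and their fathers were CAST, so that the embryos could still gain methylation after fertilisation. At E7.5, single wild-type embryos gave 2 libraries for each of the 2 crosses in each of the 2 tissues. Reads of the E7.5 libraries that covered a strain SNP had been sorted into maternal and paternal reads, and at E6.5 both alleles were measured together. All replicates were treated as separate samples, and how many reads stand behind a percentage is unknown, because the tables hold no coverage.

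Over all windows with a value in every library, mean methylation at E6.5 was 65.9 to 79.4% in wild-type epiblast and 53.5 to 66.2% in wild-type ExE, against 53.1 to 54.7% in matDKO/CAST epiblast and 39.6 to 41.8% in matDKO/CAST ExE. At E7.5 it was 71.7 to 75.6% in epiblast and 56.0 to 59.2% in ExE. The tissue labels were checked at Elf5, a trophoblast gene whose promoter is methylated in the embryonic lineage. At E6.5 its window chr2:103424112-103426923 was at 63.3% ± 12.8 (SD, n = 6) in wild-type epiblast and 21.1% ± 19.3 (SD, n = 4) in ExE, and at E7.5 chr2:103424013-103426371 was at 66.9% ± 7.51 (SD, n = 4) and 35.3% ± 10.6 (SD, n = 4).

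The bases just before 3 of the annotated starts that lie in windows with methylation on 1 parental allele are given as examples. They are 200 bases of GRCm38.p6, read 5′ to 3′ on the strand of transcription, with every CpG in capitals. The Nesp stretch is chr2:174284120-174284319, the Nespas stretch is chr2:174295437-174295636 on the minus strand, and the exon 1A stretch is chr2:174327370-174327569.
Nesp: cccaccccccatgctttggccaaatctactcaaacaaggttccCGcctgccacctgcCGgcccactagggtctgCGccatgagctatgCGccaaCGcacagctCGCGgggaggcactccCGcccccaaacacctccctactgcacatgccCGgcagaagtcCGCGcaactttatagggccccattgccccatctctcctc
Nespas: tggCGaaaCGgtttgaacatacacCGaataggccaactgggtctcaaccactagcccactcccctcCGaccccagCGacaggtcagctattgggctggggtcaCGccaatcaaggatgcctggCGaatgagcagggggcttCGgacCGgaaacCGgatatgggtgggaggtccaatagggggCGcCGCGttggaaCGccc
Exon 1A: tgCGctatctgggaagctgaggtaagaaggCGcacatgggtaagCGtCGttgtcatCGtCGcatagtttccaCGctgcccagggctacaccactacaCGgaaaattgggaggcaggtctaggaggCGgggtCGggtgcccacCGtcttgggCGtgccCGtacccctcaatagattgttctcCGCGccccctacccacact
The Nesp stretch holds 11 CpGs, the Nespas stretch 14 and the exon 1A stretch 15, counts that describe these stretches and not all starts of the locus. None of the 3 holds TGCCGC on either strand, the hexamer whose methylated form the imprint-protecting protein ZFP57 binds. It was found in 7.37% of 32851 mouse promoters of the same length in a RefSeq table.

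Which allele was methylated along the locus was read from E7.5 ExE, where more windows had both alleles than in epiblast. Both alleles were measured in all 4 libraries in 19 of 32 windows in ExE and in 5 in epiblast, and 6 windows had no allele pair in any library. A window was called maternally methylated where the maternal allele was on average at least 30 points above the paternal allele, in the same direction in every library and in at least 3 of them, and paternally methylated by the mirror rule. This gave 8 maternally methylated windows, 5 paternally methylated windows and 19 with neither. Because ExE alleles set these classes, the ExE allele values below describe them and do not test them.

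The 5 paternally methylated windows were neighbours and ran from 174280985 to 174287503, over 6519 bp around the Nesp start and the downstream start of the shortest Nespas transcript. Averaged over these windows, the maternal allele in ExE was at 15.3% ± 5.31 (SD, n = 4) and the paternal allele at 79.6% ± 9.62 (SD, n = 4). After an unclassed window, 7 maternally methylated windows followed from 174291411 to 174300446, over 9036 bp that hold the outer Nespas starts and the Gnasxl start. Over the 4 of these with both alleles in every ExE library, the maternal allele was at 90.6% ± 7.48 (SD, n = 4) and the paternal allele at 15.7% ± 2.66 (SD, n = 4). The last maternally methylated window, chr2:174327443-174327987, covers the exon 1A start and is 545 bp long. The 3 stretches are called the Nesp run, the Nespas and Gnasxl run, and the exon 1A window below.

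**Figure D1:**
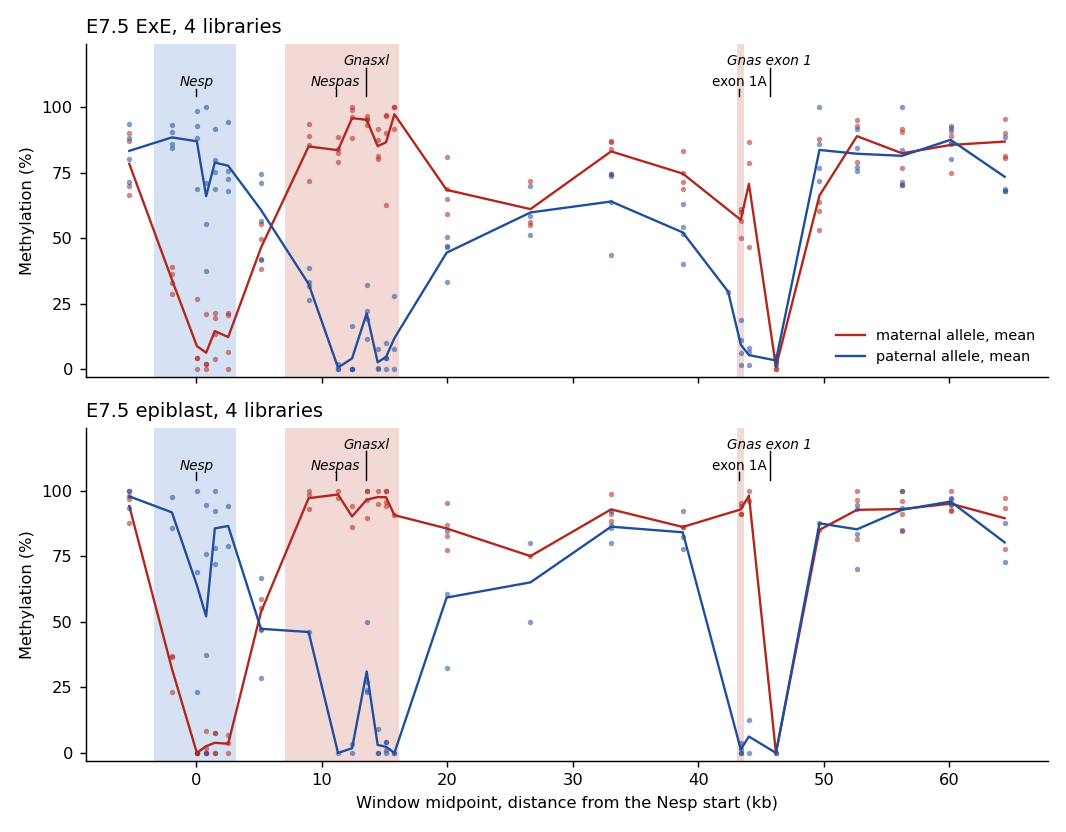
Methylation of the maternal (red) and paternal (blue) allele in each window of E7.5 ExE and epiblast, by distance of the window midpoint from the Nesp start; points are libraries, lines are means of the libraries with a value, and shading marks the paternally (blue) and maternally (red) methylated runs. The alleles cross between the Nesp run and the Nespas and Gnasxl run, lie far apart again at exon 1A, and meet near 0 downstream of Gnas exon 1.

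The crossing between the runs was narrow. The single unclassed window between them, chr2:174287533-174291410, stood on the maternal allele at 38.3, 42.1, 49.5 and 55.4% in the 4 ExE libraries and on the paternal allele at 41.6, 56.5, 70.8 and 74.3%. The ranges of the alleles overlapped, but within each of the 4 libraries the paternal allele was the higher, with maternal minus paternal differences from -28.7 to -3.34 points and a mean of -14.5 points (SE 4.09, limma adjusted p = 0.777, unadjusted 0.0121). The gap between the runs is 3907 bp. On the upstream side, chr2:174277048-174280909 was methylated on both alleles, at 78.3% ± 11.8 maternal and 83.3% ± 9.67 paternal (SD, n = 4).

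The class threshold fell in an empty range. Of the classed windows the smallest mean differences were 47.6 points at exon 1A, 52.4 points at chr2:174291411-174295131 and -54.2 points at chr2:174280985-174283768. The nearest windows outside the threshold had 23.9 points (chr2:174301320-174307219), 22.4 points (chr2:174320207-174325971) and, on the paternal side, -17.4 points (chr2:174332023-174335947). A window just downstream of the exon 1A window, chr2:174327988-174328738, had both alleles in 2 ExE libraries only and stayed unclassed with a mean difference of 75.4 points. Its maternal allele was at 46.8 to 86.7% and its paternal allele at 1.7 to 8.0%.

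Maternal and paternal values were then compared in each tissue with limma on all autosomal windows, with the cross as a covariate. In ExE, 3 of the 19 locus windows with complete data passed an adjusted p of 0.05, against 0.00722% of all windows tested. They were the window of the Nesp start, paternally methylated, and a pair of neighbouring windows in the Nespas and Gnasxl run. In epiblast, whose alleles played no part in the classes, 2 of 5 locus windows passed, against 0.00838% of all windows, and all 5 had the direction of their ExE class.

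At the Nesp start, chr2:174283902-174284827, the maternal allele in ExE was at 0, 4.3, 4.4 and 26.8% and the paternal allele at 68.6, 88.2, 92.6 and 98.3%. The groups did not overlap, and the difference was -78.0 points (SE 4.09, limma adjusted p = 0.0291). In epiblast the maternal allele of this window was at 0% in all 4 libraries, and the paternal allele was at 23.1, 68.8 and 100% in the 3 with a value. The next windows of the Nesp run had both alleles in all 4 epiblast libraries. At chr2:174285373-174286218, which holds a Nespas start, the epiblast maternal allele was at 0, 0, 7.7 and 7.7% and the paternal allele at 71.9, 78.0, 92.3 and 100%. That difference was -81.7 points (SE 6.99, limma adjusted p = 0.156), beyond the spread of the libraries but not past the threshold over all windows. At chr2:174284836-174285371 the epiblast paternal allele varied from 0 to 94.6% between libraries while the maternal allele stayed at 0 to 8.3%, and the difference was -49.4 points (SE 13.2, limma adjusted p = 0.941).

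The widest parental difference of the locus in ExE was in the window between the outer Nespas starts and the Gnasxl start, chr2:174296099-174297367. Its maternal allele was at 88.2, 96.0, 98.8 and 100% and its paternal allele at 0, 0, 0 and 16.7%, a difference of 91.6 points (SE 5.05, limma adjusted p = 0.0298). The window that holds the outer Nespas starts, chr2:174295132-174296098, was at 79.1 to 88.5% on the maternal allele and 0 to 2.0% on the paternal allele in ExE, with 1 paternal value missing. In epiblast its maternal allele was at 97.0 and 100% in the 2 libraries with a value, and its only paternal value was 0%.

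The window of the Gnasxl start, chr2:174297368-174298436, kept some methylation on the paternal allele. In ExE the paternal values were 11.7, 19.3, 22.2 and 32.3%, with the maternal values between 93.3 and 96.7% and a difference of 73.7 points (SE 4.34, limma adjusted p = 0.0363). In epiblast the paternal values were 23.1, 24.1, 26.9 and 50%, and the difference was 65.5 points (SE 5.29, limma adjusted p = 0.114). The level of the paternal allele here lay above that of the windows on either side in both tissues. Inside the first Gnasxl exon, at chr2:174299113-174299770, the epiblast maternal allele was at 94.1 to 100% and the paternal allele at 0 to 4.2%, a difference of 95.1 points (SE 4.15, limma adjusted p = 0.0140). The same window in ExE had 81.8 points (SE 5.56, limma adjusted p = 0.0712), with 1 B6/CAST library at 62.8% on the maternal allele and the other 3 at 90.0 to 96.8%.

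Calls in ExE rested on all 4 libraries. Without any 1 of them 0 of the 20 or 21 windows testable passed in ExE, and 0% of all autosomal windows. In epiblast 0 passed when any 1 epiblast library was left out, and again 0% of all windows. The loss of calls was thus not particular to the locus. In ExE the difference at the Nesp start still stayed between -80.6 and -75.5 points. That at chr2:174296099-174297367 stayed between 86.4 and 96.7 points. Allowing 1 missing library also gave 0 in both tissues, and 0% of all windows.

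Of the 5 windows with complete alleles in both tissues, exon 1A had the largest change of the parental difference. In epiblast its maternal allele was at 90.9, 90.9, 94.1 and 95.2% and its paternal allele at 0, 0, 1.4 and 3.9%, a difference of 91.5 points (SE 4.05, limma adjusted p = 0.0140). In ExE the maternal allele was at 50.2, 56.7, 60.0 and 61.1% and the paternal allele at 1.6, 6.1, 11.3 and 18.7%, a difference of 47.6 points (SE 4.75, limma adjusted p = 0.414). Maternal values of the tissues did not overlap, and in both tissues every maternal value lay above every paternal value. The change of the parental difference from epiblast to ExE was -43.9 points (SE 6.06), and its limma adjusted p over 237650 windows was 0.912, from an unadjusted 4.48e-05. In that comparison 0% of all windows passed, with 12852 windows at an unadjusted p under 0.05, and of the 5 locus windows tested exon 1A was the only one under it. Tested by allele, which was decided after the values had been seen, the maternal allele of exon 1A differed in ExE by -35.8 points (SE 3.93, limma adjusted p = 0.00147), where 59% of all windows were lower past the same threshold and the median window differed by -16.0 points. The paternal allele differed by 8.08 points (SE 4.34, limma adjusted p = 0.128), and 59.6% of all windows were lower in ExE on that allele past the threshold.

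All reads gave another picture of the same window. Counted without regard to SNPs, exon 1A was at 21.1 to 36.8% in epiblast and 18.0 to 38.7% in ExE, a difference of -3.28 points (SE 4.92, limma adjusted p = 0.552). The mean of the alleles was 47.1% in epiblast, so all reads lay 17.2 points below it there, and 6.57 points below it in ExE. Among the 24 combinations of window and tissue with complete data the median gap was -1.22 points, and without the epiblast exon 1A value the gaps ran from -8.52 to 10.2 points. Reads that cover a SNP sample part of a window's CpGs, and the part of this sampling in the exon 1A values was not tested.

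**Figure D2:**
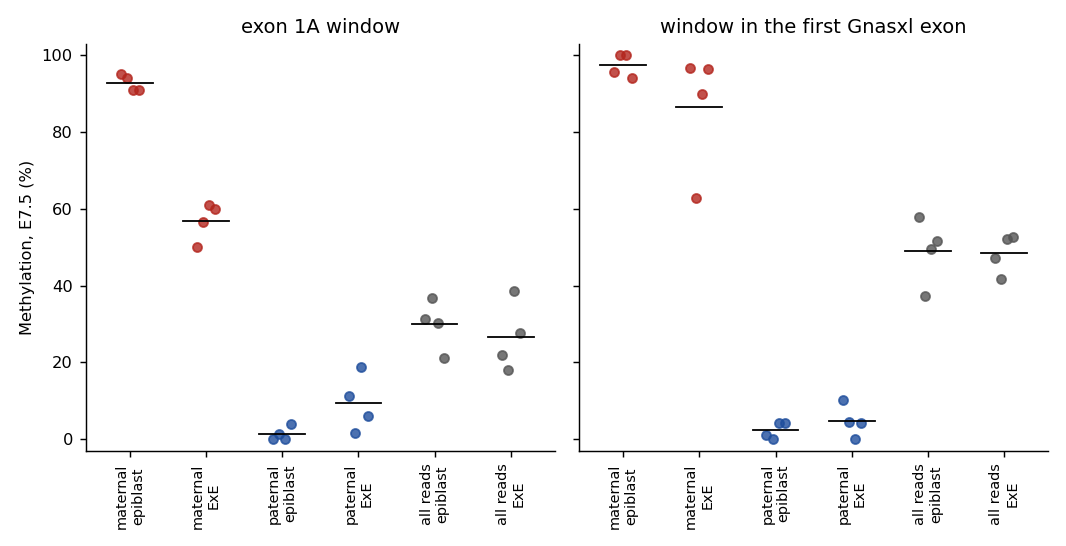
Methylation at E7.5 of the maternal allele (red), the paternal allele (blue) and all reads (grey) in epiblast and ExE, for the exon 1A window and for the window chr2:174299113-174299770 in the first Gnasxl exon; points are the 4 libraries and bars their means. At exon 1A the maternal allele separates the tissues (90.9 to 95.2% against 50.2 to 61.1%) while all reads overlap.

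Downstream of Nespas and Gnasxl, 4 long windows inside Gnas reached from 174301320 to 174325971. In ExE the maternal allele was above the paternal allele by 23.9, 19.1 and 22.4 points in the 3 windows with complete data, with limma adjusted p = 0.777 for each. The other one, chr2:174307366-174314542, had both alleles in 3 libraries, with differences from -13.8 to 20.8 points and a mean of 1.28. The window of Gnas exon 1, chr2:174329958-174330322, was almost free of methylation, at 0 to 0.9% in epiblast and 0.3 to 2.1% in ExE with all reads. Its neighbour chr2:174330323-174330714 had 0 to 3.4% as the mean of either allele in either tissue. From 174335948 to 174351701 the mean of each allele was between 73.4 and 95.8% in both tissues, with no class.

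The crosses were compared next. The rule of the classes fixed the direction in each ExE library, so the ExE values describe it, while the epiblast values are independent of the rule. In epiblast the Nesp run was at 4.51 and 63.5% (maternal and paternal, over 2 windows) in B6/CAST and at 1.92 and 74.1% in CAST/B6, and the Nespas and Gnasxl run at 96.3 and 13.0% against 97.7 and 20.4% (over 2 windows). Exon 1A in epiblast was at 94.7 and 0.71% in B6/CAST and at 90.9 and 1.96% in CAST/B6. In ExE the Nesp run was at 13.0 and 83.2% (maternal and paternal) in B6/CAST and at 17.6 and 75.9% in CAST/B6, and the Nespas and Gnasxl run at 87.8 and 16.4% against 93.4 and 15.0%. Exon 1A in ExE was at 53.4 and 6.43% in B6/CAST and at 60.6 and 12.4% in CAST/B6 (means of 2 libraries each). The strain difference, tested in the same limma fits, passed in 0% of all windows in ExE and 0% in epiblast, with 27808 and 15868 windows at an unadjusted p under 0.05. In the locus it was under 0.05 unadjusted in 3 of 19 windows in ExE and 0 of 5 in epiblast. Of the 3, 2 were in the Nesp run: the parental difference of B6/CAST minus that of CAST/B6 was -47.6 points at chr2:174284836-174285371 (SE 11.3, limma adjusted p = 0.539) and -21.7 points at the Nesp start (SE 8.19, limma adjusted p = 0.556).

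The flanks of the locus were tested in the same fit. Of the 113 windows within 250 kb on either side that could be tested in ExE, 0 passed, 5 had an unadjusted p under 0.05, and their differences ran from -11.4 to 19.7 points. Other imprinted promoters were taken as a yardstick, as the windows that hold an annotated start of a chosen gene. For 6 of the 7 maternally methylated genes chosen (Peg3, Kcnq1ot1, Snrpn, Mest, Plagl1 and Airn) 13 start windows could be tested in ExE, their differences ran from -8.59 to 85.3 points and 3 passed. For the paternally methylated H19 and Meg3 5 windows ran from -76.9 to 12.9 points and 1 passed.

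The tissues were next compared with all reads at E7.5. ExE is globally less methylated than epiblast, with a median difference of -16.5 points over all autosomal windows, but the means of the imprinted runs lay closer together. The Nesp run was at 48.0% ± 1.81 in ExE and 43.5% ± 5.09 in epiblast, the Nespas and Gnasxl run at 47.9% ± 3.45 and 47.8% ± 6.17, and exon 1A at 26.6% ± 9.01 and 29.9% ± 6.50 (SD, n = 4 each). Of the 32 windows, 10 were lower in ExE with a limma adjusted p under 0.05, against 82.9% of all windows, and 2 were higher, against 1.3%. Of the 10 that fell, 9 were unclassed windows and 1 was the most upstream window of the Nespas and Gnasxl run, chr2:174291411-174295131, by -13.3 points (SE 3.57, limma adjusted p = 0.00742).

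Both windows that rose were in the Nesp run. The window of the Nesp start was at 23.3, 28.5, 28.8 and 41.5% in epiblast and at 41.3, 41.7, 50.9 and 55.2% in ExE, a rise of 16.8 points (SE 3.15, limma adjusted p = 0.00119), with 1 epiblast library reaching the lowest ExE values. At chr2:174286219-174287503 epiblast was at 14.4, 20.1, 47.0 and 51.3% and ExE at 46.7, 47.1, 49.9 and 51.8%, a rise of 15.7 points (SE 6.07, limma adjusted p = 0.0374), and the low epiblast values were those of the CAST/B6 cross. The largest falls were in the body of Gnas, of -22.9 points at chr2:174301320-174307219 and -23.3 points at chr2:174320207-174325971 (SE 3.02, limma adjusted p = 0.000230 at the first). With each library's mean over all windows subtracted, 20 of 32 windows passed, all of them higher, against 20.8% of all windows higher. Of the 20, 10 were in the classes. The subtraction moved every window upwards alike, also those near 0% in both tissues, such as that of Gnas exon 1. This count therefore does not show a gain of methylation in ExE. Without any 1 of the 4 CAST/B6 libraries 1 window was higher in place of 2.

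**Figure D3:**
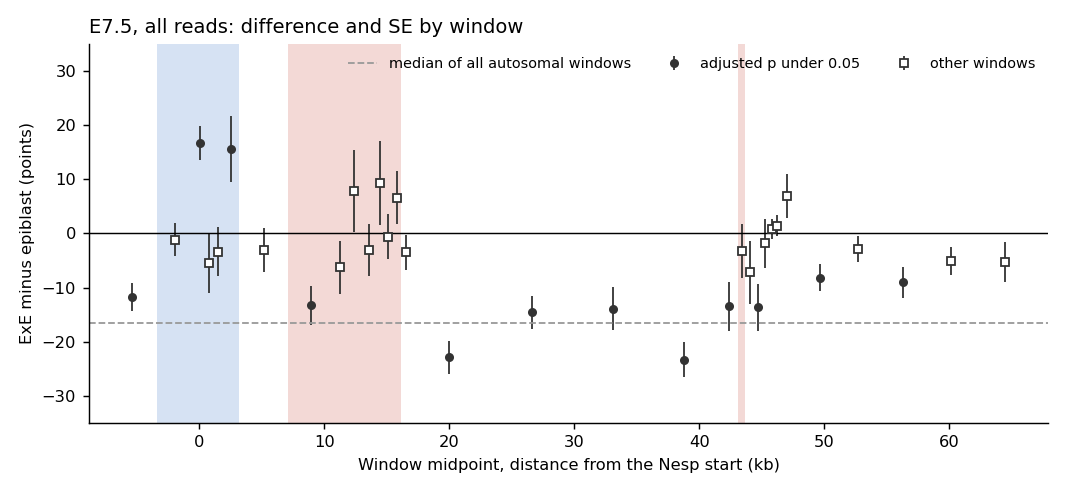
Difference in methylation between ExE and epiblast at E7.5 (all reads, percentage points) in each window, by distance of its midpoint from the Nesp start; bars are standard errors of the limma fit, filled circles passed an adjusted p of 0.05, the dashed line is the median of all autosomal windows (-16.5 points) and shading marks the runs. Windows in the runs sit between -6.25 and 9.26 points, apart from 2 higher windows at Nesp and 1 lower window, while windows in the body of Gnas fell by up to 23.3 points.

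At E6.5 windows had other bounds and both alleles were measured together, so a window took the class of the E7.5 run that held its midpoint. This gave 5 windows of the Nesp run, 7 of the Nespas and Gnasxl run, 1 of exon 1A and 17 with no class. The E7.5 and E6.5 values stand side by side here and were not compared, because the tables and the material differ. Means were taken over the windows of a run measured in all E6.5 libraries of the tissue, so the tissues rest on partly different windows and were compared only window by window. Over 5, 6 and 1 windows, wild-type epiblast was at 49.2% ± 3.73 in the Nesp run, 65.9% ± 10.4 in the Nespas and Gnasxl run and 32.5% ± 11.6 at exon 1A (SD, n = 6). Over 3, 6 and 1 windows, wild-type ExE was at 51.7% ± 10.6, 52.6% ± 6.95 and 28.1% ± 18.9 (SD, n = 4).

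In the tissue comparison at E6.5, 7 of 24 locus windows were lower in ExE (limma adjusted p under 0.05), against 59.6% of all windows, and 1 was higher, against 0.663%. The window that rose was again in the Nesp run. At chr2:174286218-174287601, wild-type epiblast was at 14.9, 22.1, 23.3, 25.0, 30.1 and 41.7% and ExE at 28.3, 40.0, 55.6 and 58.3%, a rise of 19.4 points (SE 6.75, limma adjusted p = 0.0275), with overlap at the ends. Another window of the Nesp run, its most upstream one at chr2:174279173-174283509, fell by -20.1 points (SE 6.35, limma adjusted p = 0.0182), from 68.8 to 100% in epiblast to 65 to 77.3% in ExE. Of the other windows that fell, 2 lay in the Nespas and Gnasxl run, by -32.2 points (chr2:174292613-174295392, limma adjusted p = 0.00805) and -24.7 points (chr2:174296437-174297622, limma adjusted p = 0.0107). The counts depend on single libraries. Without B6/CAST ExE replicate 1 there were 4 lower, against 48.4% of all windows, and 0 higher, and without CAST/B6 ExE replicate 2 there were 4 lower, against 52.1%, and 1 higher. The higher call was also lost without CAST/B6 epiblast replicate 2 or 3, without CAST/B6 ExE replicate 1, and on a logit scale. With library means subtracted 2 windows passed in all, both higher, against 8.66% of all windows higher.

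No window differed between the crosses at E6.5 past the threshold. CAST/B6 against B6/CAST passed in 0% of all windows in epiblast and 0% in ExE, with 27360 and 59327 windows at an unadjusted p under 0.05. In each tissue 2 of the 23 locus windows tested were under 0.05 unadjusted, and CAST/B6 libraries were higher over all windows by a median of 8.00 points in epiblast and 11.5 points in ExE.

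Loss of oocyte methylation was assessed in matDKO/CAST against B6/CAST, which share CAST fathers. The mothers differ in strain background as well as in the deletion, and these cannot be told apart in the comparison. Methylation of the Nespas and Gnasxl run was low in matDKO/CAST, and least so at its ends in ExE. In epiblast the mean over the Nespas and Gnasxl run was 2.78 and 13.6% in the 2 matDKO/CAST libraries, against 48.3 to 69.0% in B6/CAST and 60.6 to 78.5% in CAST/B6. In ExE it was 14.0 to 16.4% in the 3 matDKO/CAST libraries, against 52.4 and 53.5% in B6/CAST and 43.9 and 60.9% in CAST/B6. These means, over 6 of the 7 windows in each tissue, lay below all wild-type libraries. At the upstream end of the run in ExE, chr2:174292613-174295392, matDKO/CAST was at 17.3, 17.8 and 29.4% and wild type at 31.4 to 53.1%. At the downstream end, chr2:174300031-174300756, matDKO/CAST was at 25.4, 34.8 and 35.2%, overlapping B6/CAST at 34.9 and 70.2%.

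**Figure D4:**
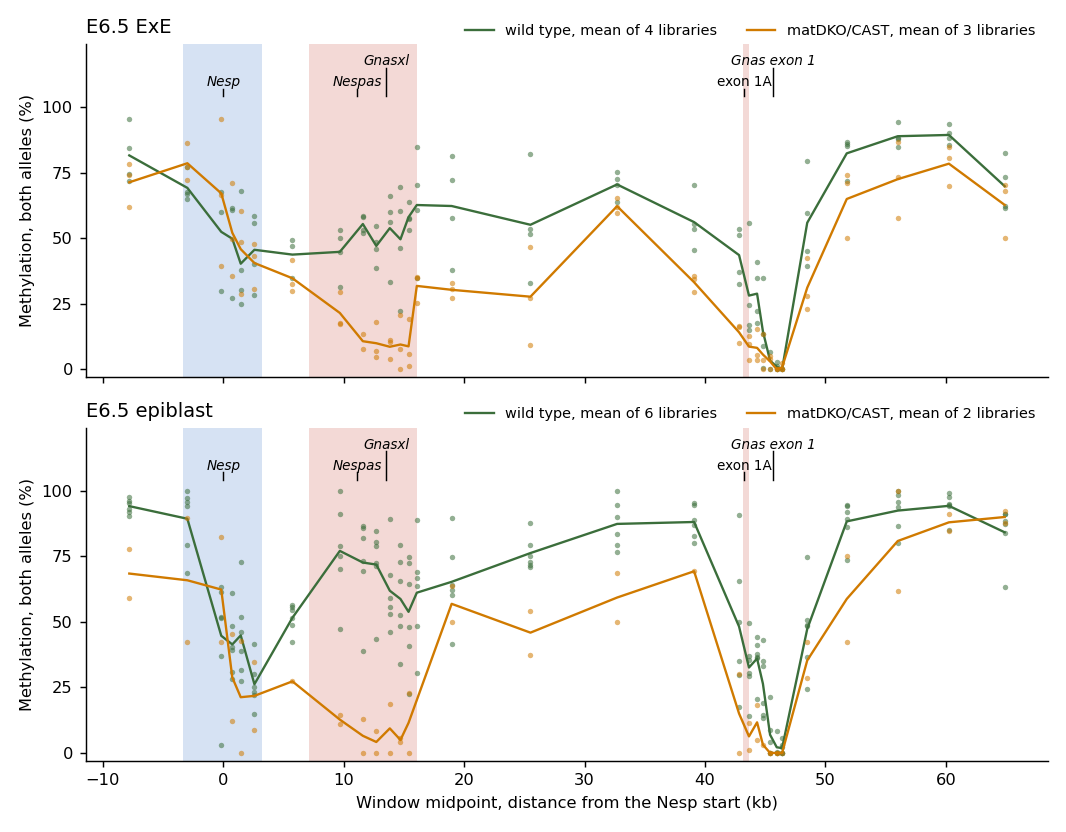
Methylation of both alleles together at E6.5 in wild-type (green, both crosses) and matDKO/CAST (orange) ExE and epiblast, by distance of the window midpoint from the Nesp start; points are libraries, lines are means of the libraries with a value and shading marks the E7.5 runs (blue paternal, red maternal). The orange line lies low in the Nespas and Gnasxl run and at exon 1A, rises to 21.5 and 31.8% at the ends of that run in ExE, and overlaps the green values at Nesp.

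Among single windows in epiblast, 8 of 23 were lower in matDKO/CAST with a limma adjusted p under 0.05, against 23.4% of all windows, and the median difference was -16.4 points over all windows. On a logit scale 0 windows passed in the locus and 0% of all windows were lower past the threshold. Of the 8, 5 were consecutive windows of the Nespas and Gnasxl run from 174292613 to 174299391. The largest difference was in the window of the outermost Nespas start, chr2:174295393-174296436, at 69.3, 81.8 and 86.7% in B6/CAST, at 38.8, 73.0 and 85.7% in CAST/B6 and at 0 and 13.0% in matDKO/CAST. Its difference from B6/CAST was -72.7 points (SE 12.7, limma adjusted p = 0.0140). The window of the Gnasxl start, chr2:174297623-174298680, was at 46.2, 52.8 and 55.7% in B6/CAST and at 0 and 18.7% in matDKO/CAST, a difference of -42.2 points (SE 9.50, limma adjusted p = 0.0219). Next to them, chr2:174299392-174300022 differed by -31.1 points with a limma adjusted p of 0.108, and the last window of the run had no matDKO/CAST value in epiblast.

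At exon 1A, chr2:174327582-174328370, B6/CAST epiblast was at 14.0, 29.5 and 30.3% and matDKO/CAST at 1.0 and 11.6%, which did not overlap. The difference was -18.3 points (SE 7.44, limma adjusted p = 0.0970), and -1.57 points with each library's mean over all windows subtracted. The window downstream of it, chr2:174328390-174328906, was at 36.5, 37.7 and 41.0% in B6/CAST and at 5.0 and 18.3% in matDKO/CAST, a difference of -26.8 points (SE 7.76, limma adjusted p = 0.0407). The other windows that fell were unclassed, chr2:174273883-174279154 by -23.5 points and chr2:174305818-174313839 in the body of Gnas by -29.2 points.

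None of the 5 windows of the Nesp run passed in epiblast, and their differences ran from -29.4 to 31.8 points with a median of -8.25. The matDKO/CAST libraries disagreed there: over the run replicate 1 was at 58.9% and replicate 3 at 21.0%, while B6/CAST libraries were at 44.9 to 51.8%. At the Nesp start, chr2:174283510-174284801, matDKO/CAST was at 42.1 and 82.4% and B6/CAST at 3.1, 36.8 and 51.4%, a difference of 31.8 points (SE 15.1, limma adjusted p = 0.139). CAST/B6 was at 51.9, 61.4 and 63.2% there, and the difference was 17.6 points with both crosses as wild type. It was 18.1 points without B6/CAST replicate 3, 11.7 points without matDKO/CAST replicate 1 and 52.0 points without matDKO/CAST replicate 3.

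In ExE 0 of 23 locus windows passed with limma, and 0% of the 254322 windows of all autosomes, where 65546 had an unadjusted p under 0.05. In the locus 11 of 23 had an unadjusted p under 0.05, 5 of them among the 7 maternally methylated windows and 0 among the 3 of the Nesp run. The median difference was -37.4 points in the maternally methylated windows, -1.45 points in the Nesp run and -12.4 points over all autosomal windows. The window of the Gnasxl start was at 56.0 and 59.8% in B6/CAST and at 4.1, 10.5 and 11.2% in matDKO/CAST, a difference of -49.3 points (SE 9.36, limma adjusted p = 0.132). At chr2:174299392-174300022, the next but one window, B6/CAST was at 57.4 and 57.7% and matDKO/CAST at 1.3, 5.9 and 19.1%, a difference of -48.8 points (SE 7.25, limma adjusted p = 0.132). At exon 1A ExE was at 17.0 and 24.7% in B6/CAST and at 3.6, 9.6 and 12.8% in matDKO/CAST, a difference of -12.2 points (SE 11.0, limma adjusted p = 0.463), which turned to 0.27 points with library means subtracted.

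In ExE the Nesp run of matDKO/CAST overlapped with wild type. Over the 3 windows of the run measured in all ExE libraries, matDKO/CAST was at 48.5 to 58.5%, B6/CAST at 42.1 and 63.4% and CAST/B6 at 43.3 and 57.8%. The tests of matDKO/CAST depend on which wild-type libraries enter. With both crosses as wild type, 10 of 23 windows passed in ExE, against 49% of all windows, and 12 of 23 in epiblast, against 53%, all of them lower, including 6 and all 7 of the maternally methylated windows and 0 of the Nesp run in either tissue. With library means subtracted 0 of the locus windows and 0% of all windows were lower past the threshold in either tissue, and the median difference of the maternally methylated windows was then -37.6 points in epiblast and -24.9 points in ExE. That of the Nesp run turned to 8.45 and 11.0 points, and that of the unclassed windows was -6.60 and -3.17 points. In epiblast the count was 3 without B6/CAST replicate 3 (10.1% of all windows), 4 without the B6/CAST library whose column number, 2, is in no sample title (5.43%) and 5 without matDKO/CAST replicate 3 (15.1%).

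**Figure D5:**
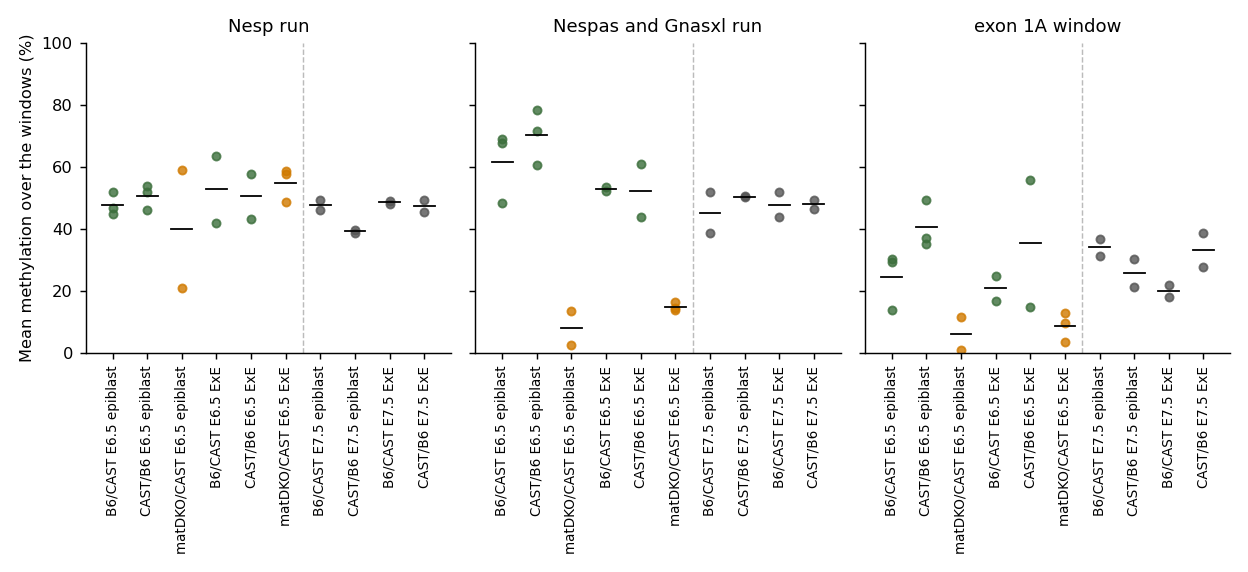
Mean methylation of both alleles over the Nesp run, the Nespas and Gnasxl run and the exon 1A window in each library, by group; points are libraries, bars are group means, orange marks matDKO/CAST, and the dashed line separates E6.5 from E7.5, whose windows differ, as do those of the tissues at E6.5. The matDKO/CAST libraries are below every wild-type library in the Nespas and Gnasxl run (2.78 to 16.4%) and at exon 1A, while in the Nesp run the ExE libraries lie among the wild-type ones and the 2 epiblast libraries (58.9 and 21.0%) on either side of them.

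The bounds of the runs depended on how many libraries had to hold both alleles. In ExE, requiring all 4 libraries left the Nesp run as it was and broke the Nespas and Gnasxl run into pieces of 3721, 2338 and 658 bp, the last ending at 174299770. With 2 libraries enough, exon 1A methylation reached to 174328738. In epiblast at E7.5 the rule of 3 libraries gave no run of neighbouring windows but 2 paternally methylated windows, chr2:174283902-174284827 and chr2:174285373-174286218, and 3 maternally methylated windows, chr2:174297368-174298436, chr2:174299113-174299770 and exon 1A, and all 5 lay inside the ExE runs. With a single library with both alleles accepted, the outer limits in epiblast were 174280985 and 174287503 for paternal methylation and 174291411 and 174300446 for the Nespas and Gnasxl windows, as in ExE. Inside these limits, chr2:174284836-174285371 stayed out because 1 library had the opposite sign, and chr2:174295132-174296098 and chr2:174296099-174297367 because no library had both alleles. In ExE the limits of the large runs were the same at a threshold of 20 or 50 points, but 50 points dropped exon 1A and 20 points added chr2:174301320-174307219 and chr2:174320207-174325971. Within the maternally methylated run, the windows in which matDKO/CAST lay below every wild-type library of the tissue reached from 174292613 to 174299391 in epiblast and to 174300022 in ExE.

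The sequence of the windows was searched for the same hexamer. TGCCGC, counted on both strands, occurred 13 times in the 9036 bp of the Nespas and Gnasxl run, 2 times in the 6519 bp of the Nesp run and 1 time in the exon 1A window. It was present in 6 of the 8 maternally methylated windows and in 1 of the 5 paternally methylated windows, with no test of that difference, and in 8 of the 19 unclassed windows of the locus, against 31.8% of all autosomal windows and 40.3% of those in the length range of the classed windows under 1500 bp. The most occurrences, 5, were in the window in the first Gnasxl exon. CpG density was close between the large runs, at 36.0 CpGs per kb in the Nesp run and 37.0 in the Nespas and Gnasxl run, and higher in the exon 1A window, at 86.2. These are descriptions of the sequence, since a match of letters is not a bound site.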

How the data were processed

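The authors deposited percent methylation per window of 100 CpG positions for 15 E6.5 libraries, for 8 E7.5 libraries and for each parental allele at E7.5. Reads had been trimmed (Trim Galore 0.4.4), aligned with Bismark 0.20.0 to GRCm38 with strain SNPs masked, and split by SNPs; the versions are those of the submitters' processing notes, and the study's methods give others. Reads of matDKO/CAST went through a mapping of their own that allowed for 129 alleles, and only the E7.5 tables used here are split by allele. The E6.5 column of 1 B6/CAST epiblast library has a number, 2, that is in no sample title, and it was used as a replicate of its group. Conversion of the E7.5 DNA had been repeated after poor first results, and 1 matDKO/CAST epiblast replicate had been left out by the authors. Values are not scaled between libraries. The deposited percent values carry no coverage, so the depth and its counting error are unknown, and allelic values rest on SNP-covering reads alone. No source says that replicates of a group came from separate litters, so p-values measure the spread between these libraries.

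The members, classes and gene lists were chosen with earlier results of these data known. Windows were fitted over all 19 autosomes with limma 3.58.1 in R 4.3.3 (lmFit, eBayes) and p-values adjusted by Benjamini and Hochberg at 0.05; windows lacking a library were dropped from that fit. Parental differences (maternal minus paternal, per library) were fitted with the crosses at opposite signs, tissues were compared with the cross as a covariate, and matDKO/CAST was set against B6/CAST in a fit of 3 groups. The scripts were tested on simulated data. Named were, in each run, the first and last window, the neighbours outside, the window with the widest ExE difference and every window holding a start of Gnas or Nespas; other windows (in the first Gnasxl exon, at the threshold, or past the test) were chosen after their values were seen. The yardstick genes were Peg3, Kcnq1ot1, Snrpn, Mest, Peg10, Plagl1 and Airn, and H19 and Meg3; Peg10 had no testable window for the alleles. Starts and exons were taken from GENCODE M21, sequences from RefSeq GRCm38.p6. The printed sequences are a selection, and 1 other is not reported here. Other steps used Python 3.11.15 with numpy 2.4.6, pandas 2.3.3 and matplotlib 3.10.9.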

Additional observations from a re-analysis of the deposited data

Results flagged for a closer look

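Each of 45 groups of 4 to 6 values at the named windows was screened for a value far from the others, and chance alone flags about 1 such group in 20. A total of 3 were flagged, all in wild-type epiblast at E6.5. CAST/B6 replicate 3 was at 38.8% in the window of the outermost Nespas start, chr2:174295393-174296436, where the other 5 libraries were at 69.3 to 86.7%. The same library was at 20.4% in chr2:174328390-174328906 downstream of exon 1A, against 36.1 to 44.2% in the other 5. CAST/B6 replicate 1 was at 8.33% at Gnas exon 1, chr2:174330101-174330463, where the other 3 libraries with a value were at 0 to 0.275%.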

How the results depend on the processing

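Counts of called windows of the locus lay close to the threshold of the tests, and they changed more than the differences behind them. For the parental difference in ExE, 3 windows passed, against 0.00722% of all windows. On the logit scale 7 passed, against 0.00911% of all windows higher and 0.00597% lower on the maternal allele. Without the cross term 7 passed, against 0.0066% higher and 0.00283% lower. With trend and robust eBayes 10 passed, against 0.00942% higher and 0.00722% lower. With 1 missing library allowed, or any library left out, 0 passed, and 0% of all windows. In epiblast 2 passed, against 0.00838% of all windows. With trend and robust eBayes 4 passed, against 0.00755% of all windows higher and 0.00419% lower. With 1 missing library, or any library left out, 0 passed, and 0% of all windows. For matDKO/CAST in epiblast the 8 calls became 0 on the logit scale and 0 with library means subtracted, and were between 3 and 10 with 1 library left out. In ExE 0 became 10 with both crosses as wild type, where 49% of all windows were lower past the threshold. For the tissues at E6.5 there were 8 calls, against 60.3% of all windows, and at E7.5 12, against 84.2%. When 20 points were required, the calls became 5 at E6.5 and 2 at E7.5. With library means subtracted they became 2 and 20, all higher, against 8.66% and 20.8% of all windows higher. They were between 4 and 9 at E6.5 and between 10 and 12 at E7.5 with 1 library left out. Subtracting library means shifted the ExE minus epiblast differences by the global difference between the tissues. Among the named windows, it turned that difference positive at chr2:174273883-174279154 (3.97 points) at E6.5. At E7.5 it did so at chr2:174277048-174280909 (4.57 points), chr2:174291411-174295131 (3.04 points), chr2:174325972-174327442 (2.84 points) and exon 1A (13.1 points). Subtraction also turned the matDKO/CAST difference at exon 1A in ExE to 0.27 points. The other 580 of 586 values of named windows under the alternatives kept their sign. These were windows with a call, a difference of at least 30 points or a difference given in the text. Windows that were not named were not counted, and called ones among them also turned positive at E7.5. With library means subtracted, the unclassed windows ran from -7.01 to 23.2 points there, against -23.3 to 6.90 points without. The comparisons of crosses and strains and the change of the parental difference between tissues had 0 calls under each of the other alternatives run on them. Testing by allele was an alternative added after seeing the data. On the maternal allele 2 windows were lower, against 59% of all windows, and on the paternal allele 1, against 59.6%. The maternal class held 8 windows, 5 when all 4 libraries were required and 3 when epiblast set it, and the paternal class held 5 and 2; with 1 epiblast library enough, also added after seeing the data, these were 6 and 4. Leaving out 1 ExE library gave 8 to 9 and 5.

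Replicate numbers were not used to pair the samples. Epiblast and ExE libraries of the same number correlated with r of at most 0.0506 in their deviations from the group means. Where a group has 2 libraries these deviations mirror each other. The check therefore cannot show whether libraries of the same number came from the same embryos or pools. A replicate block gave 0 calls for the parental difference in ExE, 0 for matDKO/CAST in epiblast and 4 for the tissues at E6.5, and left the count of the other comparisons within 1.5 times. Where no other cause is named, the cause of these changes was not tested.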
